A study of Canis lupus familiaris with 6 samples.

Results

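The microRNAs miR-221 and miR-222 (cfa-miR-221 and cfa-miR-222 in the files) were followed in 3 cell lines of canine mammary cancer. The lines were CMT-U27, CMT-U309 and P114, each sorted into a Sca1+ and a Sca1- fraction. The pair was found by name in the scanner files and makes up 2 of the 289 canine miRNAs on the array. Their 5 probes take up 80 of the 11560 spots that are not controls. Cells were stained with antibodies to stem cell antigen 1 (Sca1), a surface protein by which stem and progenitor cells are often sorted. Each line gave 1 Sca1+ and 1 Sca1- sample. In the labels the Sca1+ fraction stands for cancer stem cells and the Sca1- fraction for their control. Whether the sort separates stem cells in these canine lines was not tested. All 6 samples were grown in the same serum-supplemented medium, and the descriptions of the P114 samples alone add growth with macrophages, which their titles do not mention. The descriptions speak of biological replicates, but nothing says that the samples of a line came from separate cultures. The p-values therefore measure only the spread between these samples, which includes differences between lines and may otherwise be technical.

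miR-221 and miR-222 are processed from neighbouring hairpins on the X chromosome and share the seed by which a miRNA recognises its targets. In human cells they repress the cell-cycle inhibitors p27 and p57, the receptor tyrosine kinase KIT, the oestrogen receptor alpha and the epithelial regulator TRPS1. They are known in human breast cancer for high levels in basal-like tumours and low levels in luminal ones.

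The arrays differed in brightness, so they are named B1, B2 and B3 (bright, with over 50 detected miRNAs) and D1, D2 and D3 (dim). The bright arrays detected 89 to 111 miRNAs and the dim ones 9 to 39. By the scanner files attached to the samples, B1, D1 and D3 were the Sca1+ cells of CMT-U309, CMT-U27 and P114, and B2, D2 and B3 were the Sca1- cells of the same lines in that order. The deposited value table holds the same values but assigns 4 of the 6 arrays to other samples. By that assignment D1, D2 and B1 were the Sca1+ cells of CMT-U27, CMT-U309 and P114, and B2, D3 and B3 were the Sca1- cells of the same lines in that order. The fraction was the same in both assignments for 4 arrays, B1 and D1 as Sca1+ and B2 and B3 as Sca1-. In both assignments B1 and D1 lay in slide row 1 and B2 and B3 in row 2, so fraction and row cannot be told apart in any comparison of these 4 arrays or of the bright ones. By the value table the same holds for all 6 arrays.

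The probes are shown first because each pairs with the 3′ part of its miRNA and they differ in length by single bases. miR-221 had 3 probes of 15, 16 and 17 bases, and miR-222 had 2 of 13 and 14 bases. All are written 5′ to 3′, with capitals for the longest run that the probes of both miRNAs share.
miR-221, 15 bases: aaACCCAGcagacaa
miR-221, 16 bases: aaACCCAGcagacaat
miR-221, 17 bases: aaACCCAGcagacaatg
miR-222, 13 bases: ACCCAGtagccag
miR-222, 14 bases: ACCCAGtagccaga

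The stretch of each miRNA that pairs with its longest probe is the reverse complement of that probe, with the shared run again in capitals.
miR-221: cauugucugCUGGGUuu
miR-222: ucuggcuaCUGGGU

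The shared run of 6 bases, ACCCAG, was the longest in common, and past it the probes of miR-221 and miR-222 differ. It was found on the written strand in 7 of the 656 probes on the array (1.07%), which belong to miR-221, miR-222 and miR-329a, and its reverse complement in 2 probes of miR-197. The scanner files place the longest probe of miR-221 on chromosome X at 39471514 to 39471499 of the canFam2 build, and that of miR-222 at 39472150 to 39472138, with positions written in descending order. The first positions lie 636 bases apart. In the RefSeq gene table of the UU_Cfam_GSD_1.0 assembly MIR221 and MIR222 are next to each other, with a long noncoding RNA gene, LOC111094885, on one side and a pseudogene, LOC100684191, on the other.

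miR-221 and miR-222 were detected together on 4 arrays, B1, D1, B2 and B3, and neither was detected on D2 or D3. These 4 are the arrays whose fraction is the same in both assignments. Levels are given as the total gene signal, the scanner software's sum over the probes of a miRNA that it detects, in intensity units and with the software's own error. miR-221 had 175 ± 16.0 on B1 and 29.6 ± 3.67 on D1, both Sca1+, against 746 ± 64.2 on B2 and 667 ± 57.3 on B3, both Sca1-. Both Sca1+ signals lay below both Sca1- signals, but D1 is a dim array on which all miRNAs summed to 3228 units, against 69282 on B1. miR-222 had 118 ± 10.0 on B1 and 13.3 ± 3.57 on D1, against 346 ± 26.5 on B2 and 251 ± 19.3 on B3. The sum held fewer probes where the signal was low, since the 15-base probe of miR-221 had 0 of its 14 spots well above background on B1, and on D1 the total equalled the signal of the longest probe alone for both miRNAs. The order of the arrays was the same for both miRNAs, B2, B3, B1 and D1 from high to low. B2 and B3 overlapped within their errors for miR-221, and for miR-222 they did not.

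**Figure D1:**
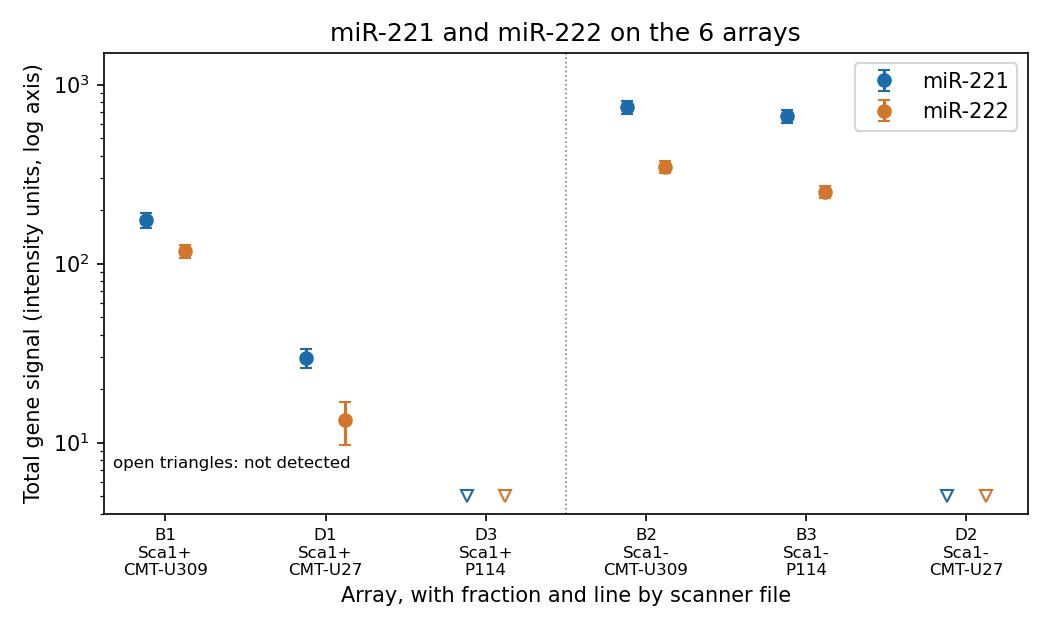
Total gene signal of miR-221 and miR-222 (intensity units, log axis) on each array, with Sca1+ arrays left of the dotted line and Sca1- arrays right of it, and fraction and line by scanner file; bars are the scanner software's error and open triangles mark arrays without detection. Both miRNAs sit highest on B2 and B3, at 251 to 746, and are not detected on D3 and D2.

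The spots of the pair on the arrays without detection lay around 0. On D3 the median processed signal, which is the intensity of a spot after spatial detrending, was 0.40 over the 40 spots of miR-221 and -1.75 over the 40 spots of miR-222. On D2 the medians were -0.32 and -2.63. Of the 80 spots of miR-221 on D3 and D2 together, 40 had values at or below 0 and 1 was well above background, a spot of 31.4 on D3 that the software marked as an outlier. Of the 80 spots of miR-222, 65 had values at or below 0 and 0 were well above background. All miRNAs on D3 summed to 319.5 units and those on D2 to 1277, so absence of detection there gives only a bound.

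Because the arrays differ in brightness, each signal was also expressed as a percentage of the summed signal of all detected miRNAs on its array. That sum covers 39 miRNAs on D1, against 89 to 111 on the bright arrays, so the percentage also depends on what else was detected. miR-221 made up 0.253% on B1 and 0.918% on D1, against 1.05% on B2 and 0.951% on B3. On this scale D1, a Sca1+ array, lay close to the Sca1- arrays, and B1 stood below the other 3 arrays. miR-222 made up 0.170% on B1 and 0.412% on D1, against 0.489% on B2 and 0.357% on B3. The Sca1+ and Sca1- values of miR-222 overlapped, since D1 lay between B3 and B2. The highest and lowest percentages differed 4.17-fold for miR-221 and 2.88-fold for miR-222, where the signals themselves differed 25.2-fold and 26.1-fold.

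The probes of each miRNA were then compared with each other, since they read the same molecule through different numbers of paired bases. On B2 and B3, where every spot of the pair was well above background, the signal was higher the longer the probe. On B1 the 3 probes of miR-221 had mean spot signals of 7.89 ± 2.03, 23.3 ± 1.45 and 175 ± 14.6 from 15 to 17 bases (SD over the 14, 11 and 12 spots without outlier flags), the shortest with 0 spots well above background. The 17-base probe exceeded the 16-base probe 7.53-fold on B1 (SE 0.23), against 7.53-fold on B2 (SE 0.21) and 7.52-fold on B3 (SE 0.21). On these 3 arrays the steps differed by less than their errors, although the 17-base probe had 175 on B1 and 723 on B2. The 16-base probe exceeded the 15-base probe 3.01-fold on B2 (SE 0.09) and 2.84-fold on B3 (SE 0.08). For miR-222 the 14-base probe exceeded the 13-base probe 1.65-fold on B1 (SE 0.04), against 1.63-fold on B2 (SE 0.02) and 1.71-fold on B3 (SE 0.03). No step is given for D1, where the 16-base probe of miR-221 had 0 of 13 spots well above background and the 13-base probe of miR-222 had 1 of 20.

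**Figure D2:**
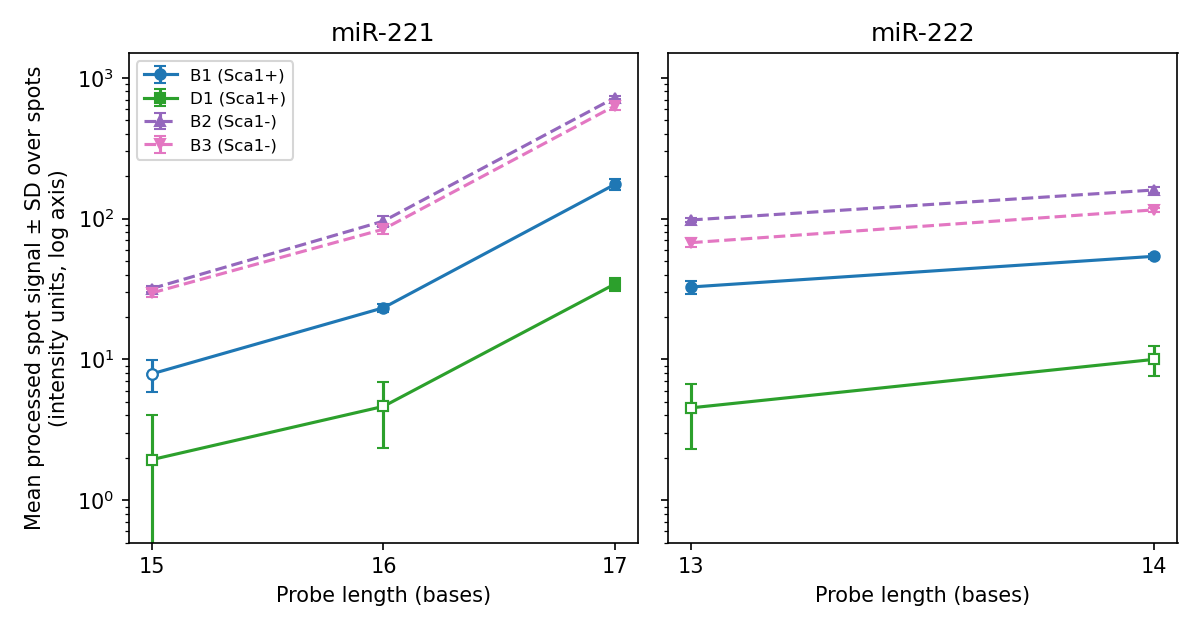
Mean processed signal of the spots of each probe (intensity units, log axis) against the probe's length in bases, for miR-221 and miR-222 on the 4 arrays that detected them; bars are the SD over spots, open points mark probes with under 50% of their spots well above background, and the lower bar of the shortest miR-221 probe on D1 is cut by the axis. On B1, B2 and B3 the step between the 16-base and 17-base probes of miR-221 is 7.52-fold to 7.53-fold.

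The probes with all spots well above background on the bright arrays gave similar distances between B1 and the Sca1- arrays. The 16-base and 17-base probes of miR-221 were 4.13-fold and 4.12-fold lower on B1 than on B2, and 3.62-fold and 3.61-fold lower than on B3. The 13-base and 14-base probes of miR-222 were 2.99-fold and 2.96-fold lower on B1 than on B2. Against B3 they were 2.06-fold and 2.14-fold lower on B1. The spots of the longest probe varied by 2.37% to 10.6% of their mean across the 4 arrays for miR-221 and by 3.77% to 23.6% for miR-222, the highest on D1 for both. No spot of either miRNA was saturated on any array.

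miR-221 and miR-222 come from a common primary transcript in human cells. Their ratio was read within each array, where the scaling between arrays has no part. The probes of the 2 miRNAs differ, and the ratio is no ratio of molecules, so only its differences between arrays are read. On D1 it compares the longest probes alone, of which that of miR-222 had 6 of 20 spots well above background, and on the other arrays sums of several probes. The signal of miR-221 was 1.49 times that of miR-222 on B1 (error 0.19) and 2.23 times on D1 (error 0.66), against 2.15 times on B2 (error 0.25) and 2.66 times on B3 (error 0.31). B1 had the lowest ratio, and D1 lay between B2 and B3. The log2 ratio averaged 0.87 ± 0.41 in Sca1+ samples and 1.26 ± 0.22 in Sca1- samples (SD, n = 2 each), a difference of -0.39 (exact permutation test, two-sided, p = 0.667, where 0.333 is the smallest p that 2 against 2 samples allow). The ratio varied 1.79-fold over the 4 arrays. Without B1 the difference was -0.10. With the probe of the highest mean in place of the total gene signal it was -0.56. With normexp background, which fits the background and adds an offset, the difference from such single probes was -1.42.

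**Figure D3:**
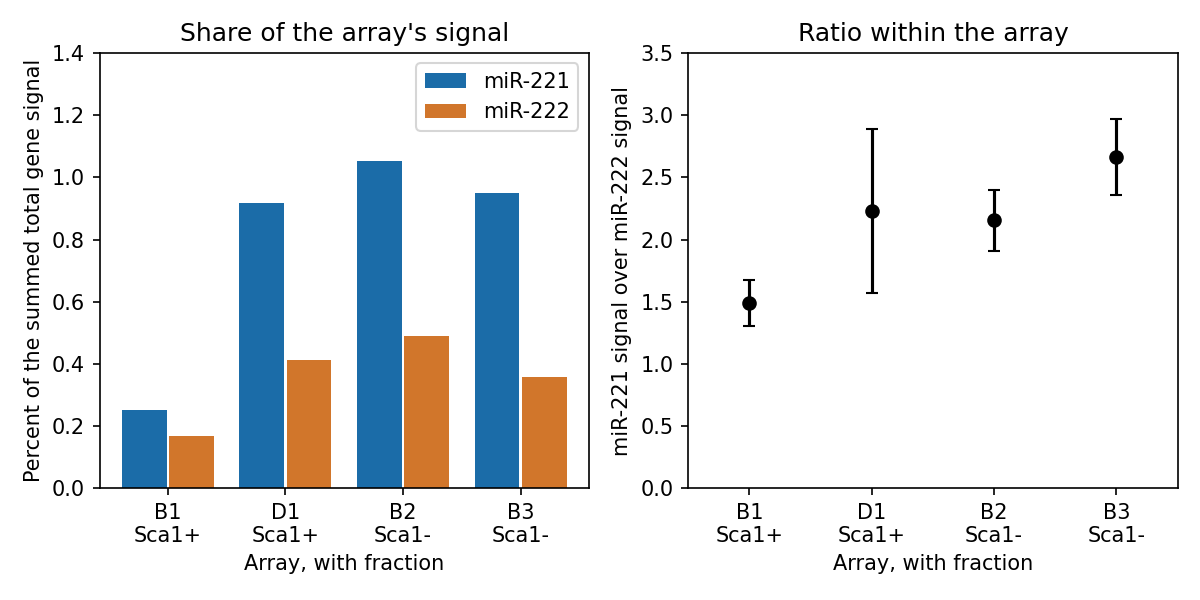
Left, the percentage of the array's summed total gene signal that miR-221 and miR-222 made up; right, the signal of miR-221 over that of miR-222 within the array, with the error propagated from the scanner software's errors, for Sca1+ arrays B1 and D1 and Sca1- arrays B2 and B3. B1 is lowest in both panels, at 0.253% and 0.170% and at a ratio of 1.49.

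The fractions were next set against each other within lines on all 6 arrays, which is the comparison the series was designed for. Neither miRNA passed. The log2 difference, Sca1+ minus Sca1-, was -0.87 for miR-221 (SE 2.46) and -0.07 for miR-222 (SE 4.01) over 3 pairs, each with an adjusted p of 0.995 by limma. Their 95% intervals ran from -6.96 to 5.22 and from -9.98 to 9.83, so large differences in either direction lie within them. Of the 80 miRNAs tested 0% passed, and the median of all log2 differences was -0.81. The fitted values include arrays without detection and are inexact there. By scanner file miR-221 and miR-222 were detected in Sca1+ cells but not in Sca1- cells of CMT-U27, and in Sca1- cells but not in Sca1+ cells of P114. In CMT-U309 both fractions had signals, 175 against 746 for miR-221 and 118 against 346 for miR-222. No fold or direction is given for CMT-U27 or P114, because the bound against the undetected array was below 1 for both miRNAs in the scaling used. By the value table the same signals make pairs of 29.6 against 746 in CMT-U27 and 175 against 667 in P114 for miR-221, with neither fraction detected in CMT-U309. The CMT-U27 pair then sets the dim D1 against the bright B2, and as a percentage of the summed signal it is 0.918% against 1.05%. The log2 differences by that assignment were -1.85 for miR-221 (SE 0.83) and -1.90 for miR-222 (SE 0.85), each with an adjusted p of 0.792 by limma, and again 0% of miRNAs passed.

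The bright arrays alone set B1 (Sca1+) against B2 and B3 (Sca1-), with 1 residual degree of freedom and the lone Sca1+ array assumed to vary like the other 2. With 1 Sca1+ array, the fraction cannot be told apart from anything else particular to that sample. After scaling, miR-221 had log2 values of 7.23 on B1, against 9.42 on B2 and 9.59 on B3. miR-222 had 5.54 on B1, against 7.24 on B2 and 7.14 on B3. B1 minus B2 was -2.19 and B1 minus B3 was -2.36 for miR-221, and -1.70 and -1.60 for miR-222. These distances were larger than those between the Sca1- arrays, where B2 minus B3 was -0.18 for miR-221 and 0.10 for miR-222. The fit gave log2 differences of -2.27 for miR-221 (95% interval -3.14 to -1.41, adjusted p = 0.0519 with limma) and -1.65 for miR-222 (-2.49 to -0.81, adjusted p = 0.0828). Neither passed over the 90 miRNAs tested, of which 4.44% passed, all as lower on B1. Detection on at least 2 bright arrays was required, so miRNAs seen on B2 and B3 alone entered and those seen on B1 alone did not. The direction of these calls was therefore partly set by the filter. Among the 78 miRNAs detected on all 3 bright arrays, differences can be ordered, and their median was 0.16. There miR-221 stood at place 4 and miR-222 at place 5 from the lowest difference. With that narrower filter both passed (adjusted p = 0.00496 and 0.0134 with limma), where 10.3% of the 78 miRNAs did, 7.69% as lower and 2.56% as higher.

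**Figure D4:**
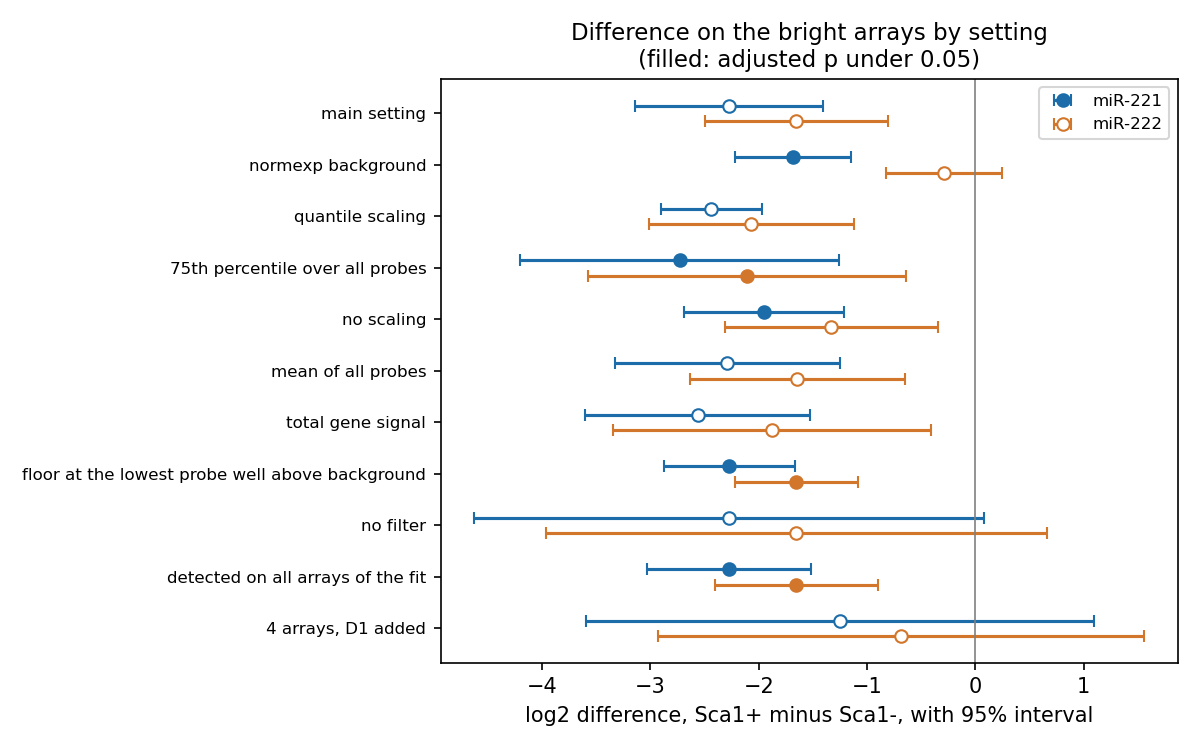
Log2 difference, Sca1+ minus Sca1-, of miR-221 and miR-222 with its 95% interval under each setting of the bright-array comparison, and in the last row with D1 added as a second Sca1+ array; filled points have an adjusted p under 0.05. All differences lie below 0, and those with D1 added, at -1.25 and -0.69, are the closest to 0 for miR-221.

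Adding D1, the other Sca1+ array with the same fraction in both assignments, brought the differences nearer to 0. On the scale of those 4 arrays miR-221 had log2 values of 6.34 on B1 and 8.08 on D1, against 8.49 on B2 and 8.43 on B3. miR-222 had 4.64 on B1 and 6.27 on D1, against 6.31 on B2 and 5.98 on B3. The distance between the 2 Sca1+ arrays was thus larger than that between D1 and either Sca1- array for both miRNAs. For miR-222 this rests on a dim array where its 14-base probe had 6 of 20 spots well above background. The log2 differences were -1.25 for miR-221 (95% interval -3.59 to 1.09) and -0.69 for miR-222 (-2.93 to 1.56), each with an adjusted p of 0.645 by limma over 78 miRNAs, of which 0% passed.

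B1 also differed from the other bright arrays in markers of cell type. Of the 7 epithelial miRNAs, which include the miR-200 family, 5 were detected on B1 with a summed signal of 5129 and 0 on D1, against 1 on B2 with 28.9 and 0 on B3. On D2 miR-141 of this list was detected at 23.9, while miR-200a and miR-200b were detected on no array. Of the 6 mesenchymal and stromal miRNAs, 1 was detected on B1 with 19.9 and 0 on D1, against 2 on B2 with 635 and 2 on B3 with 623. All of this signal came from miR-140 and miR-199, and no member of the list was detected on D2 or D3. Of the 5 leukocyte and macrophage miRNAs, 3 were detected on B1 with 948 and 1 on D1 with 65.7. B2 had 2 with 219 and B3 had 2 with 149. The D1 signal was miR-223 alone, whose level stayed at 59.6 to 80.9 whatever the brightness of the array. No other member of this list was seen on D2, where miR-223 had 59.6, or on D3, where it had 61.2. Most of the B1 sum, 690, came from miR-146a, which no other array detected. miR-142 of the same list was detected on no array. miR-126, the defining miRNA of endothelial cells, in which miR-221 and miR-222 are abundant, was not detected on any array. Of the 2 erythroid miRNAs on the array, miR-451 alone was detected, at 18.1 on B2 and 39.4 on D2. The part of these markers in the lower signal of miR-221 and miR-222 on B1 was not tested. In sorted cells of this kind, fewer cells of a type and less RNA per cell cannot be told apart.

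The lines were compared with the fraction as a term, which asks whether the level of the pair depends on the line. By scanner file neither miRNA passed among the 3 lines (adjusted p = 0.901 for miR-221 and 0.888 for miR-222 with limma), and 0% of 80 miRNAs did. In the pairs of lines the adjusted p of miR-221 was 0.692 for CMT-U309 over CMT-U27, 0.994 for P114 over CMT-U27 and 0.845 for P114 over CMT-U309. For miR-222 it was 0.692, 0.994 and 0.791. By the value table both passed among the lines (adjusted p = 0.0495 and 0.0129), in a comparison where 17.5% of miRNAs did. In that assignment both arrays of CMT-U309 are D2 and D3, on which neither miRNA was detected. The values fitted there rest on spots at the floor or not above background on the dimmest arrays, so no direction or size is given for the pair. The adjusted p with limma was 0.0316 and 0.00801 for CMT-U309 over CMT-U27, where 17.5% of all miRNAs were called, all lower. It was 0.0381 and 0.00908 for P114 over CMT-U309, where 27.5% of all miRNAs were called higher, 2.5% lower and 30% in either direction. P114 and CMT-U27 did not differ past the threshold for either miRNA by that assignment.

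Other miRNAs that repress cell-cycle inhibitors or the oestrogen receptor alpha, or come from the same chromosome, were read on the bright arrays. The cell-cycle list includes repressors of p21, which is not among the targets named above for miR-221 and miR-222. Of 12 miRNAs reported to repress p27, p21 or p57 in human cells, all were on the array, 9 were detected on at least 1 array and 7 were tested, of which 0 passed (4.44% of all miRNAs did). Their median log2 difference was -0.05, against 0.18 for all 90 miRNAs, with 3 values above 0 and 4 below. miR-20a, which represses p21, had 775 on B1, against 820 on B2 and 528 on B3. miR-106b, which also represses p21, had 766 on B1, against 337 on B2 and 316 on B3 (log2 difference 0.88, SE 0.30, adjusted p = 0.191 with limma). miR-106a had 399 on B1, against 417 on B2 and 269 on B3, and miR-93 had 489, against 296 and 222. The log2 differences of these 4 miRNAs ran from -0.12 to 0.88, and those of all 7 tested from -0.67 to 0.88. Beside them stood -2.27 for miR-221 and -1.65 for miR-222, and the gap to the pair was not tested. Of 5 miRNAs reported to repress the oestrogen receptor alpha in human cells, 2 were detected and tested and 0 passed. miR-22 had 583 on B1, against 696 on B2 and 839 on B3, and miR-18a had 144, against 85.8 and 58.5.

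The scanner files place 37 other miRNAs on the X chromosome. Of these 10 were detected on at least 1 array and 6 were tested on the bright arrays, of which 0 passed. Their median log2 difference was -0.09, against 0.18 for all 90 miRNAs, with 1 value above 0 and 5 below. The brightest were miR-106a, which is also in the list above, and miR-98, a member of the let-7 family, with 97.6 on B1, against 71.4 on B2 and 75.03 on B3. miR-223, a myeloid miRNA, was at 59.6 to 80.9 on all 6 arrays. miR-188 had 80.5 on B1, against 77.3 on B2 and 55.0 on B3. The highest and lowest bright array differed less for each of these than for miR-221.

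Among 77 other miRNAs detected on all 3 bright arrays, the pattern most like that of miR-222 was that of miR-149, by the root mean square distance between scaled and centred log2 values (0.04). miR-29b at 0.29 and miR-21 at 0.30 followed, and miR-221 came at place 4 with 0.31. For miR-221 the nearest were miR-149 at 0.30, miR-222 at 0.31 and let-7e at 0.32. These distances rest on 3 arrays. miR-149 had 45.1 on B1, against 107 on B2 and 79.2 on B3, but stayed at 33.5 to 39.7 on the dim arrays, where miR-221 and miR-222 were low or undetected. Over all 6 arrays the scaled values of miR-149 had a Pearson r of -0.70 with miR-221 and -0.80 with miR-222, and those of miR-221 and miR-222 one of 0.97, where undetected values at the floor enter and all arrays share the scaling.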

How the data were processed

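Total RNA was hybridised to 1-colour Agilent miRNA arrays. The labels name the dye Cy5, while each file holds 1 green channel. Agilent Feature Extraction made the deposited files; the headers give its version as 10.10.1.1, the submitters' processing notes as 10.7.3.1. Per the file headers, spatial detrending was on for the processed intensity of a spot, and the background method is given only as a code. The total gene signal is set to 0.1 where a miRNA is not detected, and the same signal fills the deposited series table. Every column in it equalled exactly 1 scanner file over 311 features (relative tolerance 1e-04), 2 of them the file attached to the same sample and 4 another.

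Before log2 was taken, processed intensities of 0 or less were replaced by the smallest positive one on their array. Arrays were scaled by the 75th percentile over probes with at least 50% of spots well above background on all arrays of the fit (10 probes over 6 arrays, 122 over the bright ones, 42 over 4 arrays). Spots without outlier flags were averaged, and the probe with the highest mean stood for its miRNA. Detection on at least 3 arrays (2 on the bright arrays) was required, and limma 3.58.1 was run under R 4.3.3, with Benjamini-Hochberg adjustment and a threshold of 0.05. Line was the block in the fits over 6 arrays, since both fractions were sorted from it. The bright-array fits, with or without D1, had no term for line. The code was tested on simulated data. The number of arrays limits the precision.

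The members, the lists, the bright-array limit and the tests were chosen with earlier results of these data known. Named genes were miR-221, miR-222, the 3 miRNAs nearest to each and up to 4 of the brightest of each list. The 4-array fit was added after the data were examined. Cell type markers were read as 5 lists, epithelial, mesenchymal and stromal, leukocyte and macrophage, endothelial and erythroid.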

Additional observations from a re-analysis of the deposited data

Results flagged for a closer look

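By scanner file, the pair was detected in opposite fractions in different lines, each line having 1 sample per fraction. In CMT-U27 miR-221 had a signal of 29.6 and miR-222 one of 13.3 in Sca1+ cells, against no detection in Sca1- cells. In P114 both were detected in Sca1- cells alone. The bounds against the undetected arrays were below 1 in the scaling used, so neither line has an established direction, and a difference between lines was not tested. By the value table the CMT-U27 pair of arrays is a dim one against a bright one. There miR-221 made up 0.918% of the summed signal in Sca1+ cells, against 1.05% in Sca1- cells, and miR-222 0.412%, against 0.489%.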

How the results depend on the processing

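Over all arrays neither miRNA passed under any of 16 alternatives each (lowest adjusted p = 0.653 with limma). With a filter at detection on all arrays 9 miRNAs were tested and 0 passed. The pair was not among them, since both were undetected on D2 and D3. The difference of miR-222 turned to 0.25 with normexp background and 0.37 with scaling over all probes. Leaving out 1 sample in turn gave -3.91 to 1.31 for miR-221 (0.07 without either CMT-U309 sample, 1.31 and 1.23 without a P114 sample) and -5.91 to 4.75 for miR-222 (1.02, and 4.75 and 4.67). Without the replicate block the values stayed at -0.87 and -0.07, and no call changed. On the bright arrays both differences were below 0 in all 12 alternatives. miR-221 passed in 5 of 10 tested ones: -1.69 with normexp, -2.73 with scaling over all probes, -1.95 without scaling, and -2.27 with a floor at the lowest probe well above background or with detection on all arrays. miR-222 passed in 3, at -2.11 with scaling over all probes and -1.65 with that floor or that filter, and was at -0.29 with normexp. The median of all miRNAs moved from -0.28 to 0.65 between settings. Relative to that median, miR-221 was at -2.92 to -2.24 and miR-222 at -2.30 to -0.84 over these settings. The count of miRNAs called was 4 in the main setting, 54 with normexp (43 higher, 11 lower), 11 with scaling over all probes (1 higher, 10 lower), 10 with that floor (3 higher, 7 lower), 8 with detection on all arrays (2 higher, 6 lower) and 2 with the mean of all probes. It was 0 with quantile scaling (29 at an unadjusted p under 0.05), 0 without a filter (32) and 0 with D1 added (8), all with limma. Without B3 or B2 the values were -2.39 and -2.30 for miR-221 and -1.91 and -1.55 for miR-222, with no test. Among lines, with limma, the value table gave 14 calls in place of 0, with adjusted p = 0.0495 for miR-221 and 0.0129 for miR-222. It gave 14 for CMT-U309 over CMT-U27 (0.0316 and 0.00801) and 24 for P114 over CMT-U309 (0.0381 and 0.00908). The total gene signal gave 1 call among lines, 1 for CMT-U309 over CMT-U27 and 1 for P114 over CMT-U27, neither of them miR-221 or miR-222. Leaving out 1 sample gave 0 to 7 calls among lines and 0 to 8 for CMT-U309 over CMT-U27, the highest without the Sca1+ sample of P114. The cause of these changes was not tested. The ratio of miR-221 to miR-222 had differences of -1.42 to -0.10, with no exact permutation p under 0.333.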
